A study of Mus musculus with 6 samples.

Results

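miR-21, miR-146 and miR-155 are the microRNAs most often measured as a readout of inflammatory signalling. They were followed here in small RNA libraries of mouse kidney inner medulla, the zone around the papilla in which collecting ducts join and urine is concentrated. The table was searched for every entry named miR-21a, miR-146a, miR-146b or miR-155, whichever arm of the hairpin it came from, and 7 of its 1081 entries matched. Of these, 5 passed the filter on low values (a mean of at least 5 normalized reads over all libraries): mmu-miR-21a-5p, mmu-miR-21a-3p, mmu-miR-146a-5p, mmu-miR-146b-5p and mmu-miR-155-5p, written below without the species prefix. miR-146b-3p and miR-155-3p did not pass. DicerAQP2Cre+ mice (3 libraries), in which Dicer1 is deleted by an AQP2-driven Cre, were compared with control mice (3 libraries), all 1 month old. Cre is thus present in aquaporin-2-expressing cells, chiefly the principal cells of the collecting duct, and stromal, endothelial and blood cells of the same tissue keep the gene. Small RNA libraries do not measure the Dicer1 transcript, so the deletion was not checked per sample. The labels call the second group only control and give no further allele. The columns of the DicerAQP2Cre+ mice carry the short names CK01 to CK03, read here as conditional knockout replicates 1 to 3, and every direction below rests on that reading.

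Dicer cuts a precursor hairpin into a duplex of a 5p and a 3p strand, one of which is usually kept as the guide while its partner is degraded. In the guide, bases 2 to 8, the seed, select the target mRNAs. miR-155 is made from a non-coding RNA that is induced by NF-kB and AP-1 in macrophages and lymphocytes, and it represses the signalling inhibitors Socs1 and Inpp5d. miR-146a is induced by NF-kB and represses the adaptors Traf6 and Irak1, which closes a negative feedback loop. miR-21 is induced by AP-1, STAT3 and TGF-beta, represses Pdcd4, and accumulates in injured and fibrotic kidney.

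The mature sequences are shown because seeds and near-copies decide which entries can be read apart. They come from RefSeq (GRCm38.p6) and were matched by name for 7 of the 7 entries. Each is written 5′ to 3′ with the seed in capitals.
miR-21a-5p: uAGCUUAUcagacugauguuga
miR-21a-3p: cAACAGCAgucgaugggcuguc
miR-146a-5p: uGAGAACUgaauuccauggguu
miR-146b-5p: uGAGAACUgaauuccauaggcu
miR-155-5p: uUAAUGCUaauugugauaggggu

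miR-146a-5p and miR-146b-5p share their seed, and they were the only pair among the 7 entries that did. Counted from 1 at the 5′ end of miR-146a-5p, they share the first 17 bases and differ by G18A and U21C, so a read cut short of base 18 cannot be given to either. How the authors assigned such reads is not given in the sources used here, and the split between these 2 entries is uncertain to that extent. miR-21a-5p has a seed in common with miR-21c, with which it shares the first 15 bases. miR-21c was not analysed here.

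The 4 hairpins come from separate genes. In GRCm38.p6 RefSeq places Mir21a at chr11:86584067-86584158 on the minus strand, where GENCODE has it overlapping an exon of Vmp1, a protein-coding gene for a membrane protein of autophagy. Mir146, the gene of miR-146a, lies at chr11:43374397-43374461 on the minus strand and overlapped no other annotated gene. Mir146b lies at chr19:46342762-46342870 on the plus strand, in an intron of Mfsd13a. Mir155 lies at chr16:84714140-84714204 on the plus strand, in an exon of its non-coding host gene Mir155hg. These positions are annotation of that build, and the deposited table, for which the submitters' processing notes name mm9, holds no coordinates.

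Libraries held between 2934851 and 7614853 recovered miRNA reads, the fewest in DicerAQP2Cre+ replicate 2. Genotype separated the libraries on the first principal component. On the second, replicate 3 of the DicerAQP2Cre+ group stood off from the rest (score -12.5, against 0.874 to 5.1 in the other 5), and on the first its score of -2.33 lay nearest to the controls (7.1 to 7.9). Results that rest on it are therefore given with and without that library. The series design speaks of separate mice, and the errors below therefore hold animal-to-animal variation.

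All values below are normalized reads, that is, read counts divided by a size factor per library. The tested entries spanned a wide range of level. miR-21a-5p had the highest mean, 1309 normalized reads over all 6 libraries, and stood at rank 86 of all entries. miR-155-5p followed with 369, miR-146a-5p with 145, miR-146b-5p with 75.8 and miR-21a-3p with 62.3. Over the 6 libraries the range of miR-21a-5p lay above that of every other one. The ranges of the other neighbours in this order overlapped when pooled over both genotypes. Within each single library, however, miR-146a-5p stood above miR-146b-5p (ratio 1.15 to 3.06). Of every 1000000 miRNA reads (RPM), all 7 entries together took 349 ± 119 in DicerAQP2Cre+ mice and 389 ± 34.4 in controls (SD, n = 3 each).

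miR-155-5p was the only one of the 5 whose values did not overlap between genotypes. It stood at 112, 141 and 407 normalized reads in DicerAQP2Cre+ replicates 1 to 3, against 468, 551 and 536 in control replicates 1 to 3. The first 2 DicerAQP2Cre+ libraries lay far below every control, and replicate 3 lay just under the lowest of them. Of all 461 tested entries, 33.6% had values that did not overlap between genotypes in either direction, and 18.0% had all DicerAQP2Cre+ values below all control values, so lack of overlap alone was common in these libraries.

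Means were 220 ± 162 normalized reads in DicerAQP2Cre+ mice and 518 ± 44.5 in controls (SD, n = 3 each) for miR-155-5p. In limma on log2(value + 1), with Benjamini-Hochberg adjustment over all tested entries, its log2 fold change was -1.47 ± 0.41 (SE; 95% interval -2.38 to -0.56). The adjusted p was 0.0512, just outside the threshold of 0.05, and the unadjusted p of 0.00467 placed it at rank 42. By fold change it was the 13th lowest of the 461. The entries next to it were close: miR-664-5p had an adjusted p of 0.0502 and miR-34c-5p one of 0.0565 in the same limma fit. These neighbours were named for their position beside miR-155-5p. Overall 8.46% of the tested entries were called (4.99% lower and 3.47% higher), and 0 of the 5 tested miR-21a, miR-146 and miR-155 entries were among them. At an unadjusted p under 0.05 limma gave 1 of the 5, miR-155-5p, where 28.0% of all entries passed. edgeR called 0 of the 5, beside 9.11% of all entries, and DESeq2 called 1, beside 16.2%.

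The other settings put miR-155-5p on either side of that line. DESeq2 on the recovered reads called it lower (log2 fold change -1.20, adjusted p = 0.0353, where 8.36% of entries were called lower). edgeR's quasi-likelihood test did not (-1.19, adjusted p = 0.0822). With libraries scaled to equal totals limma gave -1.68 and an adjusted p of 0.0229, where 10.4% of entries were called lower, 48 against 14 higher, compared with 23 lower and 16 higher with the deposited size factors. Under that scaling the median over all entries shifted by -0.20 on the log2 scale, and relative to the median miR-155-5p stood at -1.47 with equal totals and at -1.46 with the deposited factors. In edgeR the median shifted by 0.11 and the relative value was -1.30. limma also called it lower with a pseudocount of 5 (adjusted p = 0.0442, where 5.64% of entries were called lower) and with no filter on low values (adjusted p = 0.00222, where 2.41% were).

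Without DicerAQP2Cre+ replicate 3, miR-155-5p was called lower in limma, with a log2 fold change of -2.03 ± 0.22 (4.08-fold, adjusted p = 3.31e-05). In that fit 13.6% of 457 entries were called lower. edgeR and DESeq2 also called it without that library (adjusted p = 7.55e-05 and 5.53e-14), beside 11.1% and 12.7% of entries called lower. Without any of the other 5 libraries it was not called in limma, with log2 fold changes from -1.54 to -1.11 and adjusted p values from 0.120 to 0.168.

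Counting error does not cover the gap between replicates of the DicerAQP2Cre+ group for miR-155-5p. Replicate 2, the shallowest library, had 72 reads (exact Poisson 95% interval 56.3 to 90.7, or 110 to 178 normalized reads), and replicate 1 had 152. Replicate 3 had 398 reads, an interval of 368 to 449 normalized reads, which met that of control replicate 1 (431 to 506). Such intervals cover counting error only, since PCR copies are not independent molecules. As a share of all miRNA reads, which uses no size factor, miR-155-5p took 38.1 ± 27.6 RPM in DicerAQP2Cre+ mice and 105 ± 13.3 in controls (SD, n = 3 each). The exact two-sided permutation p was 0.1, the smallest that 3 against 3 libraries can give, and the 4 other entries had larger p values.

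The other strand, miR-155-3p, had 0 reads in all DicerAQP2Cre+ libraries and a single read in control replicate 2. A library with 0 reads allows up to 3, which is 2.22 to 5.88 normalized reads here, so no difference in this strand was detectable at this depth. miR-155 was therefore read from its 5p guide only.

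**Figure D1:**
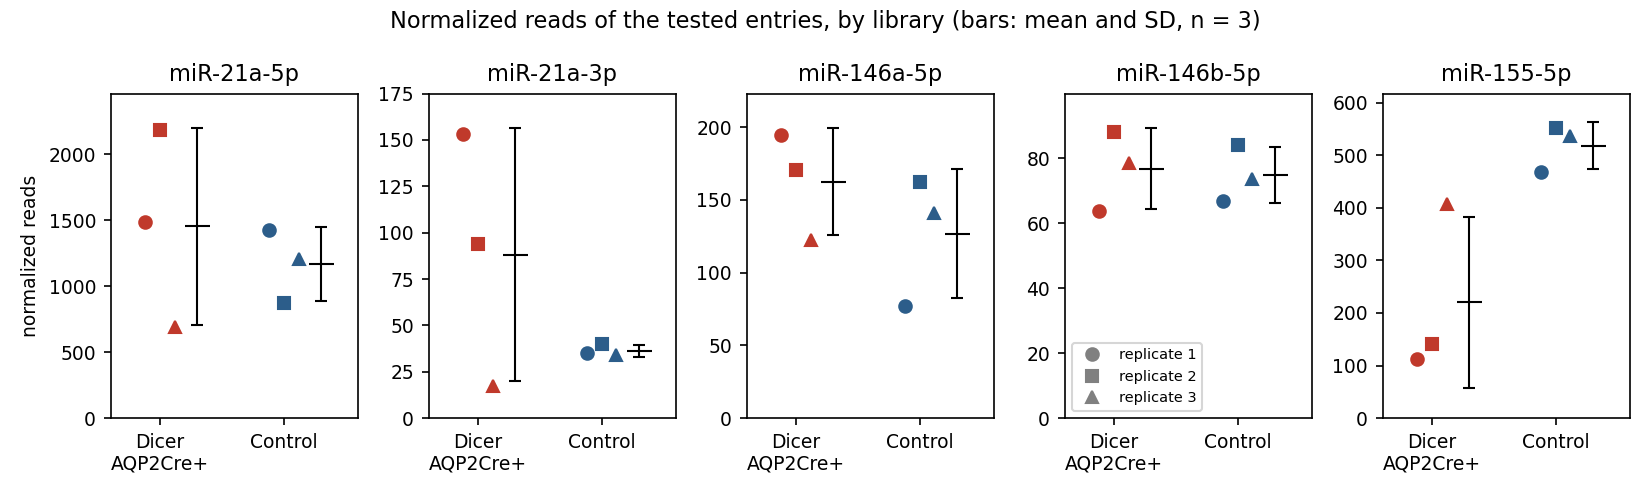
Normalized reads per library for the 5 tested entries, DicerAQP2Cre+ left of control, with 1 symbol per replicate number and the mean and SD (n = 3) beside the points. miR-155-5p lies at 112 to 407 in DicerAQP2Cre+ mice and 468 to 551 in controls, and DicerAQP2Cre+ replicate 3 is the lowest of all 6 libraries for both miR-21a strands.

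miR-21a-5p, the guide strand, showed no shift that passed the test. It stood at 1483, 2179 and 694 normalized reads in DicerAQP2Cre+ replicates 1 to 3, against 1427, 869 and 1202 in control replicates 1 to 3. The DicerAQP2Cre+ libraries gave both the highest and the lowest value of the 6, so the groups overlapped completely. Means were 1452 ± 743 in DicerAQP2Cre+ mice and 1166 ± 281 in controls (SD, n = 3 each). The log2 fold change in limma was 0.20 ± 0.38 (95% interval -0.64 to 1.03, adjusted p = 0.776), and with equal totals it was -0.016. Each library held at least 679 reads of this strand.

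The passenger strand, miR-21a-3p, varied more. It had 153, 94.1 and 17.4 normalized reads in DicerAQP2Cre+ replicates 1 to 3, against 35.4, 40.1 and 33.9 in control replicates 1 to 3. Replicates 1 and 2 lay above every control and replicate 3 below every control. Means were 88.2 ± 68.1 in DicerAQP2Cre+ mice and 36.4 ± 3.24 in controls (SD, n = 3 each). The limma log2 fold change was 0.79 ± 0.63 (95% interval -0.61 to 2.18, adjusted p = 0.439). Neither edgeR (1.35, adjusted p = 0.149) nor DESeq2 (1.31, adjusted p = 0.0977) called it.

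Leaving out DicerAQP2Cre+ replicate 3 also moved both miR-21a strands. miR-21a-3p was then called higher in limma (log2 fold change 1.70 ± 0.30, adjusted p = 0.00124), in edgeR (1.86, adjusted p = 0.00050) and in DESeq2 (1.80, adjusted p = 6.31e-06). In these fits limma called 9.41% of entries higher, edgeR 14.5% and DESeq2 10.1%. miR-21a-5p had a log2 fold change of 0.65 ± 0.24 without that library and was not called in limma (adjusted p = 0.0612) or DESeq2 (0.0501), while edgeR called it higher (0.75, adjusted p = 0.0341). In replicate 3 itself miR-21a-3p rested on 17 reads (exact Poisson 95% interval 9.90 to 27.2, or 10.1 to 27.8 normalized reads), an interval that met those of control replicate 1 (from 25.9) and control replicate 3 (from 23.6) and lay below that of control replicate 2 (from 29.8).

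The balance between the strands of the Mir21a hairpin does not depend on size factors. There were 9.69, 23.2 and 39.9 reads of miR-21a-5p for each read of miR-21a-3p in DicerAQP2Cre+ replicates 1 to 3, against 40.3, 21.7 and 35.5 in control replicates 1 to 3. Only DicerAQP2Cre+ replicate 1 lay outside the control range. The mean log2 ratio was 4.34 ± 1.0 in DicerAQP2Cre+ mice and 4.94 ± 0.47 in controls (SD, n = 3 each), a difference of -0.59 with an exact two-sided permutation p of 0.6, 1 of 2 ratios tested. Among the 112 hairpins with both strands tested, 41 had a larger absolute difference, and the ratio of 22.3% did not overlap between genotypes.

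miR-146a-5p and miR-146b-5p, the seed-sharing pair, differed little between genotypes. miR-146a-5p had 195, 170 and 123 normalized reads in DicerAQP2Cre+ replicates 1 to 3, against 76.9, 162 and 141 in control replicates 1 to 3. Control replicate 1 was the lowest of the 6, and the other control libraries lay inside the DicerAQP2Cre+ range. Means were 163 ± 36.6 in DicerAQP2Cre+ mice and 127 ± 44.3 in controls (SD, n = 3 each), with a limma log2 fold change of 0.40 ± 0.32 (95% interval -0.32 to 1.11, adjusted p = 0.446). Without control replicate 1 the log2 fold change was 0.08 ± 0.29.

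miR-146b-5p varied least of the 5 among the DicerAQP2Cre+ libraries. It had 63.6, 88.2 and 78.7 normalized reads in DicerAQP2Cre+ replicates 1 to 3, against 66.9, 84.1 and 73.6 in control replicates 1 to 3. The ranges were almost the same. The limma log2 fold change was 0.03 ± 0.26 (95% interval -0.54 to 0.60, adjusted p = 0.949), and -0.18 with equal totals. That interval bounds the difference and does not show that there was none. Its 3p strand was below the filter, with 3.70, 0 and 0 normalized reads in DicerAQP2Cre+ replicates 1 to 3 and 0.77, 2.36 and 1.94 in control replicates 1 to 3, which is 11 reads in all.

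The ratio of miR-146a-5p to miR-146b-5p was 3.06, 1.93 and 1.56 in DicerAQP2Cre+ replicates 1 to 3, against 1.15, 1.93 and 1.92 in control replicates 1 to 3. miR-146a-5p was thus the more frequent of the pair in every library. The mean log2 ratio was 1.06 ± 0.49 in DicerAQP2Cre+ mice and 0.69 ± 0.43 in controls (SD, n = 3 each), a difference of 0.37 (exact two-sided permutation p = 0.4).

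miR-155-5p and miR-146a-5p, both described as NF-kB-induced, were set against each other within each library. There were 0.58, 0.83 and 3.32 reads of miR-155-5p for each read of miR-146a-5p in DicerAQP2Cre+ replicates 1 to 3, against 6.08, 3.40 and 3.79 in control replicates 1 to 3. miR-146a-5p was the more frequent of the 2 in DicerAQP2Cre+ replicates 1 and 2 and the less frequent in the other 4 libraries. It was given no test, because the ratio was picked with its values in view. The ratio of miR-155-5p to miR-21a-5p, chosen in the same way, was 0.076, 0.065 and 0.59 in DicerAQP2Cre+ replicates 1 to 3 and 0.33, 0.63 and 0.45 in control replicates 1 to 3, where replicate 3 fell inside the control range.

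**Figure D2:**
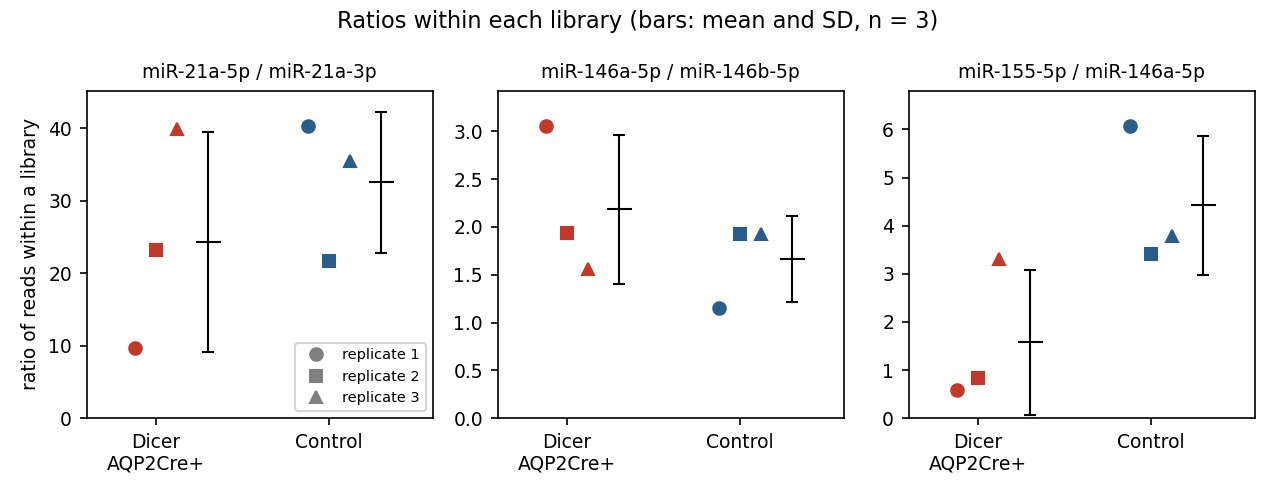
Ratios of reads within each library, DicerAQP2Cre+ left of control, with 1 symbol per replicate number and the mean and SD (n = 3). DicerAQP2Cre+ replicate 1 has the lowest ratio of miR-21a-5p to miR-21a-3p (9.69), and replicates 1 and 2 have fewer reads of miR-155-5p than of miR-146a-5p (0.58 and 0.83).

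**Figure D3:**
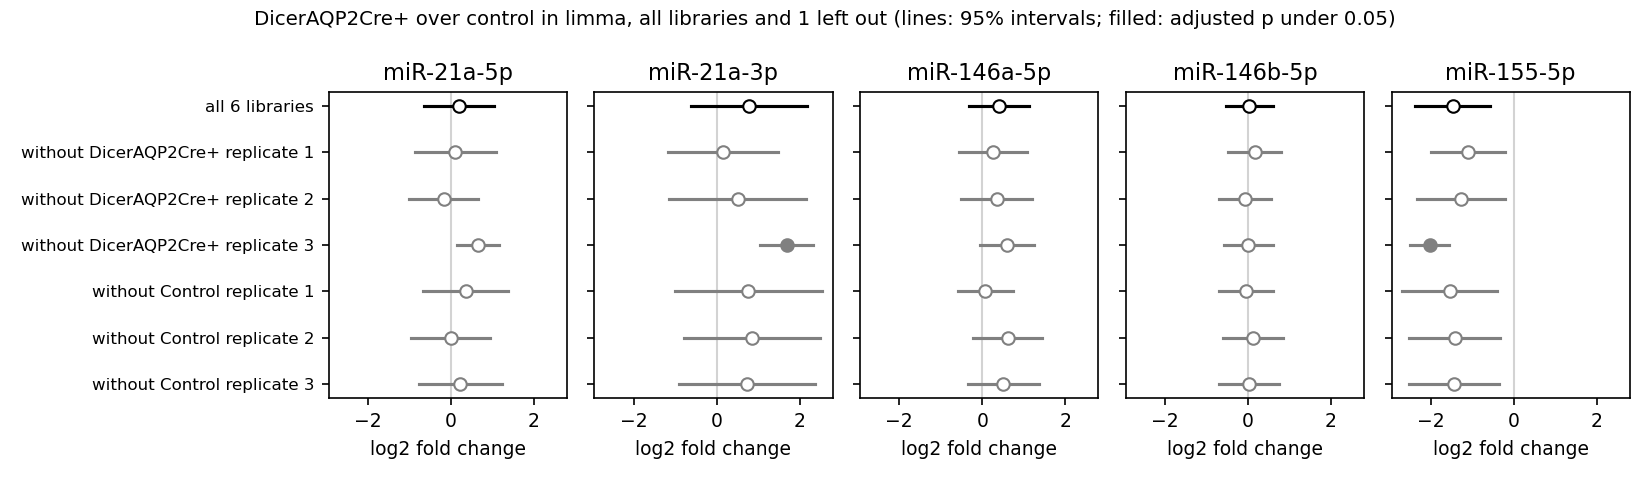
Log2 fold change of DicerAQP2Cre+ over control in limma with its 95% interval, for all 6 libraries and with each library left out, a filled point marking an adjusted p under 0.05. Filled points appear only without DicerAQP2Cre+ replicate 3, for miR-21a-3p (1.70) and miR-155-5p (-2.03).

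The spread between animals was itself uneven across the 5 entries. miR-155-5p and miR-21a-3p were tight in controls and loose in DicerAQP2Cre+ mice. Their coefficients of variation were 73.7% and 77.2% in DicerAQP2Cre+ mice, against 8.59% and 8.90% in controls, where the median over all tested entries was 30.2% in DicerAQP2Cre+ mice and 19.0% in controls. On the log2 scale 8 of the 461 entries had a larger SD than miR-21a-3p in DicerAQP2Cre+ mice, and 41 a larger one than miR-155-5p. miR-146a-5p went the other way, with 22.5% in DicerAQP2Cre+ mice and 35.0% in controls. In both loose entries replicate 3 was the library that stood off, lower than the others of its group for miR-21a-3p and higher for miR-155-5p.

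**Figure D4:**
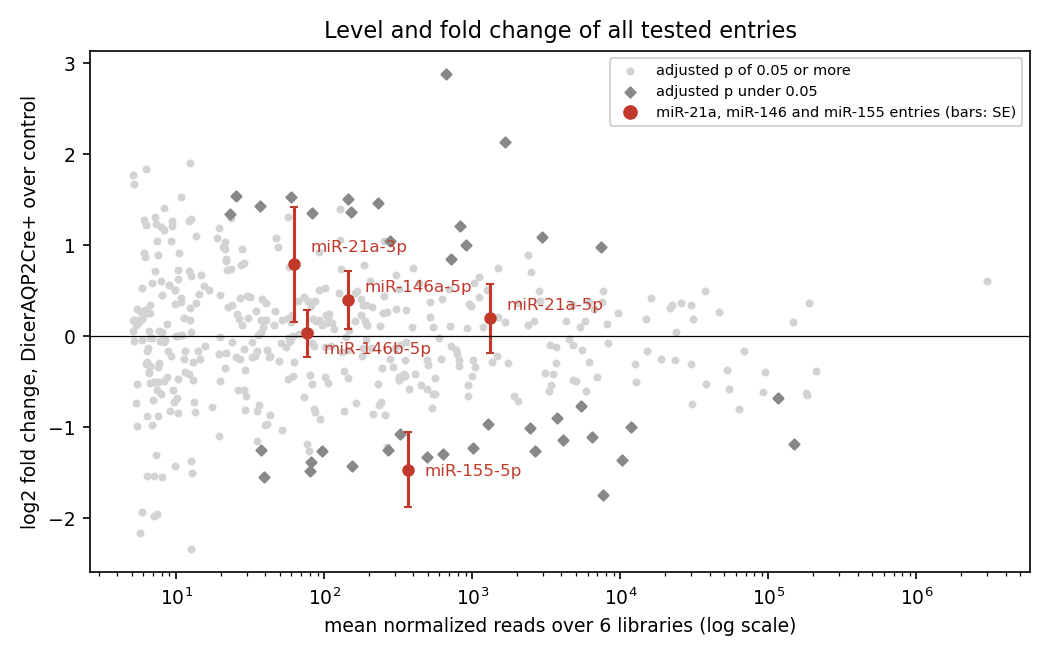
Mean normalized reads over 6 libraries (log axis) against the limma log2 fold change of DicerAQP2Cre+ over control for all 461 tested entries, with the miR-21a, miR-146 and miR-155 entries and their SE in red and called entries as diamonds. miR-155-5p lies among the called lower entries at -1.47 without passing, and the other 4 lie between 0.03 and 0.79.

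The entries whose pattern over the 6 libraries was most like each of the 5 were taken by Pearson's r on log2(value + 1), as a description in which all points share the same libraries and size factors. For miR-155-5p they were miR-6956-3p (r = 0.997) and miR-30d-5p (r = 0.976), an abundant epithelial miRNA. miR-30d-5p had 70127, 77222 and 134758 normalized reads in DicerAQP2Cre+ replicates 1 to 3, against 188464, 200307 and 227539 in control replicates 1 to 3. Its order of libraries was the same as that of miR-155-5p within the DicerAQP2Cre+ group, lowest in replicate 1 and highest in replicate 3. miR-30d-5p fell in limma (log2 fold change -1.19 ± 0.25, adjusted p = 0.0162), a call lost without DicerAQP2Cre+ replicate 2 or any 1 control. miR-6956-3p averaged 23.0 ± 7.56 in DicerAQP2Cre+ mice and 35.8 ± 2.72 in controls and did not pass (-0.66 ± 0.32, adjusted p = 0.213).

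For miR-21a-3p the most similar entries were miR-574-3p (r = 0.968) and miR-139-5p (r = 0.964), which were likewise lowest in DicerAQP2Cre+ replicate 3, at 998 and 2632 normalized reads. Those of miR-21a-5p were miR-345-3p (r = 0.895) and miR-195a-3p (r = 0.885), those of miR-146a-5p were miR-185-3p (r = 0.944) and miR-381-3p (r = 0.943), and those of miR-146b-5p were miR-7674-3p (r = 0.897) and miR-7240-5p (r = 0.879), both of which averaged under 7 normalized reads in each genotype. None of these 8 entries passed in limma, with log2 fold changes between -0.13 and 0.79 (adjusted p from 0.295 to 0.881). Without DicerAQP2Cre+ replicate 3 limma called 2 of them higher, miR-139-5p (0.80, adjusted p = 0.00662) and miR-185-3p (1.22, adjusted p = 0.0416), beside 9.41% of all entries. The 8 were picked for their likeness over libraries that include replicate 3, so these calls are not separate support. Between the 5 entries themselves, r was 0.753 for the 2 strands of miR-21a, 0.267 for miR-146a-5p with miR-146b-5p, and -0.865 for miR-155-5p with miR-21a-3p.

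Other miRNAs that Toll-like receptor or NF-kB signalling induces in immune cells gave a mixed picture. Of 18 tested entries in this list, 2 fell and 2 rose in limma, beside 4.99% lower and 3.47% higher among all entries, and the median log2 fold change was -0.06, against -0.01 over all tested entries. Both calls upwards came from the CREB-responsive miR-212/132 cluster. miR-132-3p had 1394, 1303 and 775 normalized reads in DicerAQP2Cre+ replicates 1 to 3, against 532, 432 and 486 in control replicates 1 to 3, and rose by 1.22 ± 0.26 on the log2 scale (adjusted p = 0.0164 in limma). miR-212-3p rose by 1.505 ± 0.34 (adjusted p = 0.0174). In both, as in miR-155-5p, DicerAQP2Cre+ replicate 3 lay between the other DicerAQP2Cre+ libraries and the controls.

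miR-9-5p and miR-187-3p of the same list fell. miR-9-5p, which is induced by lipopolysaccharide in human monocytes and represses NFKB1, had 320, 412 and 369 normalized reads in DicerAQP2Cre+ replicates 1 to 3, against 955, 977 and 772 in control replicates 1 to 3. Here replicate 3 lay within its group. In limma the log2 fold change was -1.30 ± 0.22 (adjusted p = 0.0126), and for miR-187-3p it was -1.25 ± 0.23 (adjusted p = 0.0136). The 2 most abundant entries of the list did not pass, miR-125a-5p at -0.39 (limma adjusted p = 0.258) and miR-99b-5p at -0.74 (adjusted p = 0.0963). Without DicerAQP2Cre+ replicate 3 the list had 4 lower and 4 higher calls among 18, in a fit where calls over all entries were also more frequent (13.6% lower and 9.41% higher).

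Among 19 tested entries of a kidney injury and fibrosis list, which shares miR-132 and miR-212 with the list above, 3 rose and 2 fell, beside 3.47% higher and 4.99% lower among all entries. The median log2 fold change was 0.43, against -0.01 over all tested entries. Besides the miR-212/132 pair, miR-214-3p rose, with 3941, 3200 and 1155 normalized reads in DicerAQP2Cre+ replicates 1 to 3, against 551, 735 and 422 in control replicates 1 to 3 (log2 fold change 2.14 ± 0.41, limma adjusted p = 0.0148). miR-214-3p is known from activated fibroblasts and injured tubules. The other strand of its hairpin, miR-214-5p, did not pass (0.50 ± 0.39, limma adjusted p = 0.423). Nor did miR-199a-5p of the same list (0.44 ± 0.43, adjusted p = 0.558). The 2 that fell were miR-29a-3p (-1.0 ± 0.19, limma adjusted p = 0.0136) and miR-29b-2-5p (-1.25 ± 0.28, adjusted p = 0.0172). miR-29a-3p belongs to a family of 3p guides that represses collagen genes and whose decrease is the one described in fibrosis. miR-29b-2-5p is the 5p strand of a hairpin of that family. The other 3p strands, named here for that reason, did not pass: miR-29b-3p (-1.54 ± 0.77, limma adjusted p = 0.217) and miR-29c-3p (-0.86 ± 0.28, adjusted p = 0.0915). miR-34a-5p, with miR-29a-3p the most abundant of the list, did not pass (-0.61 ± 0.25, adjusted p = 0.137). Without DicerAQP2Cre+ replicate 3, 7 were higher and 3 lower, in a fit that called 9.41% of all entries higher and 13.6% lower. Without control replicate 2 or control replicate 3 limma called 0 entries in the whole table, so every call in these lists was lost there. Without DicerAQP2Cre+ replicate 2, limma also lost miR-132-3p, miR-212-3p, miR-214-3p, miR-29a-3p and miR-29b-2-5p, and all of these but miR-29a-3p without control replicate 1. miR-212-3p was lost without DicerAQP2Cre+ replicate 1 too (adjusted p = 0.0539).

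**Figure D5:**
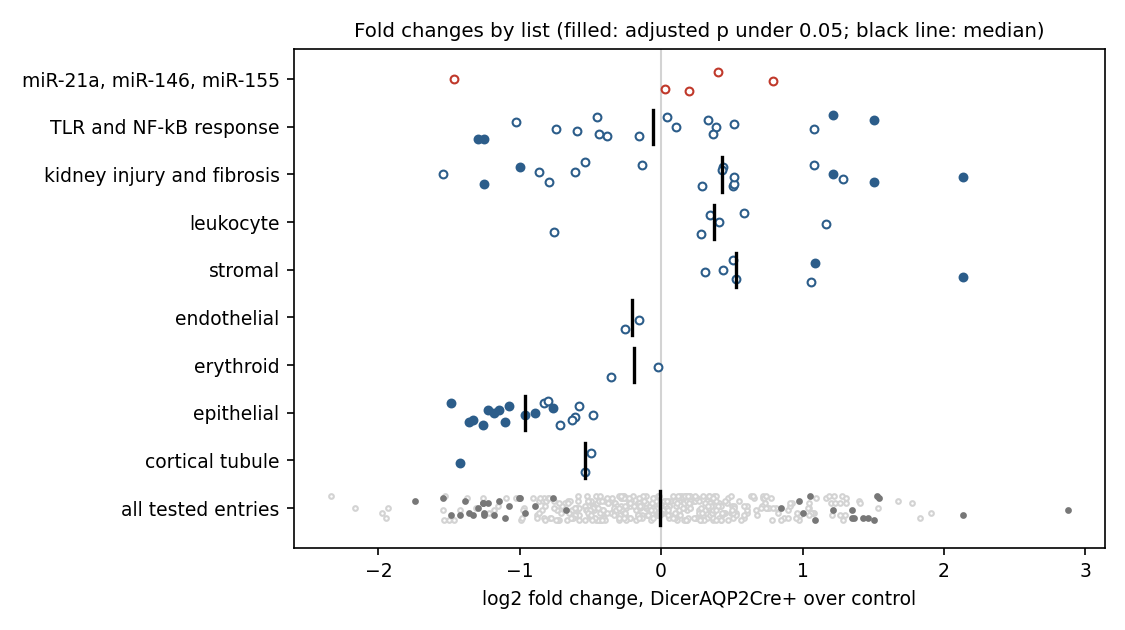
Limma log2 fold changes of DicerAQP2Cre+ over control for the miR-21a, miR-146 and miR-155 entries (red), for tested entries of the other lists (blue) and for all 461 tested entries (grey), filled where the adjusted p was under 0.05, with a black line at the median of each list but the first. Epithelial entries lie at or below -0.48 (median -0.96), stromal entries at or above 0.31 (median 0.53).

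Markers of the cell types that could carry these miRNAs were read in the same libraries. In such bulk tissue, fewer cells of a type and less RNA per cell cannot be told apart. Of 8 leukocyte entries 6 were tested, and limma, edgeR and DESeq2 each called 0 of them, beside 8.46%, 9.11% and 16.2% of all entries; 1, miR-223-3p, passed an unadjusted p of 0.05 in limma (log2 fold change 1.17 ± 0.53, adjusted p = 0.185). Within this list the miR-142a and miR-223 entries were low in both groups, while miR-342-3p and miR-150-5p were not. miR-142a-3p had 1 read in all DicerAQP2Cre+ libraries together and 0 in controls. miR-142a-5p had 2.04 to 16.3 normalized reads in DicerAQP2Cre+ mice and 1.57 to 7.74 in controls. miR-223-3p had 5.11 to 19.6 in DicerAQP2Cre+ mice and 2.90 to 5.38 in controls. miR-342-3p, which is less restricted to leukocytes, had 1064 to 1450 in DicerAQP2Cre+ mice and 714 to 1019 in controls. No entry of the list had 0 reads in all 6 libraries. miR-150-5p, a lymphocyte miRNA, made up most of the summed leukocyte level of 17244 to 39791 in DicerAQP2Cre+ mice and 13089 to 36406 in controls, and which was highest in DicerAQP2Cre+ replicate 3 and control replicate 1. The part of leukocytes in the miR-155-5p, miR-146a-5p and miR-21a values was not tested.

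Epithelial markers moved with genotype. Of 19 tested miR-200 and miR-30 entries, 12 fell in limma, beside 4.99% of all entries, and the other 7 had log2 fold changes below 0. Without DicerAQP2Cre+ replicate 3, 19 of 19 were called lower, beside 13.6% of all entries. limma called no epithelial entry without control replicate 2 or control replicate 3, where it called 0 entries in the whole table. Their summed level was 127139, 143471 and 241100 normalized reads in DicerAQP2Cre+ replicates 1 to 3, against 340810, 324619 and 354856 in control replicates 1 to 3. Within the DicerAQP2Cre+ group this sum had the same order as miR-155-5p. Most of it came from miR-30d-5p and miR-30a-5p, which both had that order. miR-30d-5p was named above for its likeness to miR-155-5p, so the shared order of the sum is not separate evidence of a link. Most of the single entries did not keep the order of miR-155-5p. miR-141-3p (425, 253 and 199) and miR-30d-3p (45.1, 43.1 and 36.8) ran the opposite way over DicerAQP2Cre+ replicates 1 to 3. In this group miR-200b-3p (3399, 3200 and 6108) and miR-30c-5p (5925, 5138 and 6262) were lowest in replicate 2, and miR-200a-3p (766, 974 and 849) was highest there. miR-429-3p (523, 560 and 728) was among those that kept the order. The part of the epithelial signal in the values of miR-155-5p was not tested.

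Stromal markers ran the other way. limma called 2 of 7 tested entries higher, miR-145a-5p of smooth muscle and the miR-214-3p already named, beside 3.47% of all entries, and all 7 had log2 fold changes above 0. Without DicerAQP2Cre+ replicate 3 it called 4 of 7, beside 9.41% of all entries, and the list's median was 0.99, against 0.53 with all libraries. It called no stromal entries without control replicate 2 or control replicate 3. Their summed level was 32324, 36776 and 25546 in DicerAQP2Cre+ replicates 1 to 3, against 21406, 22899 and 22225 in control replicates 1 to 3. As for miR-21a-3p and miR-21a-5p, replicate 3 was the lowest of its group, but for the stromal sum it stayed above every control while both miR-21a strands lay below. Most of that sum was miR-143-3p, and single entries differed. In DicerAQP2Cre+ replicate 3, miR-143-3p, miR-145a-5p, miR-145a-3p and miR-214-3p lay above every control. miR-214-5p and miR-143-5p lay within the control range, and miR-199a-5p lay below it (123, against 152 to 236 in controls). The part of the stromal signal in the miR-21a values was not tested. The endothelial sum was 830 to 1245 in DicerAQP2Cre+ mice and 961 to 1229 in controls, the erythroid sum 54.9 to 98.1 in DicerAQP2Cre+ mice and 76.1 to 92.9 in controls, and the cortical tubule sum 646 to 1145 in DicerAQP2Cre+ mice and 1306 to 1368 in controls. Of the 2 endothelial, 2 erythroid and 3 cortical tubule entries tested, miR-194-5p of the cortical tubule list fell and no other was called in limma, edgeR or DESeq2.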

How the data were processed

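Small RNA was sequenced from kidney inner medulla of 3 DicerAQP2Cre+ and 3 control mice, with total RNA from the RNeasy Micro Kit and TruSeq small-RNA libraries, per the labels' protocols. The table the authors deposited holds a normalized signal per mature miRNA: reads over 1 size factor for each library. FastQC 0.11.3, DESeq2 and build mm9 are named in the submitters' processing notes; the sources used here name no aligner, counter or miRNA release. Dividing by the smallest positive value of a column turned 100% of its values into whole reads (tolerance 0.01 read).

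limma 3.58.1 (R 4.3.3) with a mean-variance trend and no block was run on log2(value + 1), over 461 of 1081 entries with a mean of at least 5. Tests were two-sided, with Benjamini-Hochberg adjustment over these entries and calls at an adjusted p under 0.05. Fold changes on this scale understate the change of low entries. edgeR 4.0.16 and DESeq2 1.42.0 were run on the recovered reads. Ratios and shares of reads were compared by exact permutation tests. The fits were tested on simulated data. Members and lists were chosen with earlier results of these data known, and no p was adjusted over them alone.

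Entries named were the members, any arm, with seed-sharing entries, the called and the 2 most abundant entries of the Toll-like receptor and NF-kB list and of the injury list, and the 2 most similar entries by Pearson's r; any other is marked or is a cell type marker. Alternatives were pseudocounts of 0.5 and 5, no filter and a mean filter of 50, equal totals, no trend, edgeR, DESeq2, a replicate block and leaving out each library.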

Additional observations from a re-analysis of the deposited data

How the results depend on the processing

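Without 1 library at a time (limma, and, chosen after seeing the data, edgeR and DESeq2), calls over all entries ranged from 0 to 62 lower and from 0 to 67 higher, against 23 and 16. They were 0 and 0 in limma and in edgeR without control replicate 2 (43 and 40 at an unadjusted p under 0.05 in limma, 15 and 14 by DESeq2) and without control replicate 3 (47 and 45 unadjusted, 20 and 17 by DESeq2). Equal totals gave 48 lower, no trend 11 lower and 7 higher, and DESeq2 29 higher. The cause was not tested.

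miR-155-5p kept its sign in every setting, with log2 fold changes from -2.03 to -0.86 with a library left out. It was called with a pseudocount of 5 (-1.44, limma adjusted p = 0.0442), no filter (-1.47, adjusted p = 0.00222), equal totals (-1.68), DESeq2 (-1.20) and without DicerAQP2Cre+ replicate 3. With a library left out, log2 fold changes ran from -0.17 to 0.75 for miR-21a-5p, 0.16 to 1.86 for miR-21a-3p, 0.08 to 0.62 for miR-146a-5p and -0.081 to 0.22 for miR-146b-5p. With equal totals they turned to -0.016 for miR-21a-5p and -0.18 for miR-146b-5p. Ratio differences ran from -1.04 to -0.056 for the miR-21a strands and from 0.099 to 0.58 for miR-146a-5p over miR-146b-5p. Differences in RPM ran from -43.5 to 86.4 for miR-21a-5p, from -3.0 to 6.23 for miR-146a-5p and from -82.8 to -57.8 for miR-155-5p, and for miR-146b-5p the difference of -1.79 turned to 7.46 with miR-181a-5p out of the total.

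Of the similar entries, miR-345-3p turned to 0.035 in edgeR and 0.0026 in DESeq2, miR-195a-3p to -0.14 and miR-574-3p to -0.0060 with equal totals. With a library left out they ran from -0.38 to 0.33 for miR-345-3p, -0.071 to 0.62 for miR-574-3p, -0.021 to 0.75 for miR-7674-3p and -0.595 to 0.13 for miR-7240-5p. The called miR-132-3p, miR-212-3p, miR-9-5p, miR-187-3p, miR-214-3p, miR-29a-3p, miR-29b-2-5p and miR-30d-5p kept their signs in all settings, and each lost its limma call without control replicate 2 and without control replicate 3. With no trend limma also lost miR-132-3p, miR-212-3p, miR-214-3p, miR-29a-3p and miR-30d-5p (adjusted p from 0.0518 to 0.0679).

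Replicate numbers did not pair the libraries: deviations of same-numbered libraries correlated at -0.06, 0.01 and 0.06, and not every library correlated best with its own number. With a replicate block limma called 18 entries lower and 14 higher, with an adjusted p of 0.0505 for miR-155-5p and for miR-212-3p and miR-29b-2-5p, which were called without it, and the block left the differences of both ratios at -0.59 and 0.37. Depth limits miR-146b-3p and miR-155-3p, which had 11 reads and 1 read in all.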
